A study of Homo sapiens with 12 samples.

Results

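The comparison set all 8 arrays of H1299 cells that had received siRNA against GAPDH, by either of 2 delivery routes, against all 4 arrays of H1299 cells that had received buffer. Its 12 arrays are the whole series, and they were assigned by their labels, with collection time as a block. H1299 was derived from a human non-small cell lung carcinoma and has no p53. At 12 h and again at 24 h after treatment there were 2 arrays of cells given PBS buffer, 2 of cells given GAPDH siRNA by PTD-DRBD and 2 of cells given GAPDH siRNA by lipofection. Every culture, controls included, was exposed for 6 h and washed before it was left to recover. The question was which transcripts differed from buffer whichever way the siRNA had entered the cell. No array of carrier alone, or of siRNA against another target, was analysed here, so effects of losing GAPDH, of double-stranded RNA and of being exposed to a carrier cannot be told apart. Whether the 2 arrays within a group are separate cultures is not stated in the labels, and p-values then measure only the spread between these arrays, which may be technical.

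An siRNA is a short double-stranded RNA whose guide strand is loaded into an argonaute complex, which then cuts messenger RNAs of matching sequence. PTD-DRBD is a fusion protein in which a double-stranded RNA binding domain masks the siRNA and a peptide transduction domain carries it into the cell by endocytosis. Lipofection instead packs the siRNA into complexes with cationic lipid. GAPDH, glyceraldehyde-3-phosphate dehydrogenase, catalyses a central step of glycolysis and is among the most abundant messenger RNAs of most cells. Cells meet amino acid shortage, endoplasmic reticulum stress, double-stranded RNA or oxidative stress by phosphorylating the initiation factor eIF2, which favours translation of the transcription factor ATF4. ATF4 and its partners then raise genes such as DDIT3 and ATF3, a programme called the integrated stress response.

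RNA was hybridised to Illumina expression BeadChips, and levels are given here as log2 of the background-corrected, quantile-normalized bead intensity. Raw median intensities ran from 61.3 to 73.1 and the probes detected on an array from 17990 to 19097. The 2 arrays of a group correlated at 0.997 to 0.998 over the genes tested, each by its brightest kept probe. The line's VIM, KRT8, KRT18 and AXL were detected on all 12 arrays, while the lung differentiation genes NKX2-1 and SFTPC, and KRT19, were detected on none. CDH1, looked for as low or absent, was detected on 4 control and 7 siRNA arrays, at median raw intensities of 81.43 and 81.8. EPCAM and SFTPB were each detected on 1 control array and 0 siRNA arrays. Of 19 markers of blood, endothelial and fibroblast cells 17 had a probe, and 9 of these, including CD3E, CD14, HBB, VWF, COL1A1 and COL3A1, were detected on no array. PTPRC, CD68 and ACTA2 were detected on all 12, and CD68, with median raw intensities of 4023 on control and 3711 on siRNA arrays, makes up most of the list's sum. The raw intensities of the 17 summed to 5330.2 to 6096.8 on the control arrays and 4882.6 to 5841.2 on the siRNA arrays. The precision of every value is limited by the number of arrays.

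After GAPDH, the nucleolar protein gene NOL12 had the largest fall of the genes that passed in the pooled comparison, to 35.2% of control. GPR137B, TMTC2, GPR176, CLDN1, LRATD2 and TGFBI fell to between 48.7% and 54.6% of control. The stress and early response transcription factor genes DDIT3, EGR1 and ATF3 rose 2.34-fold, 1.93-fold and 1.76-fold, and FOSB also rose, from control levels near background. Of 12117 genes tested with limma, 819 (6.76%) passed at a Benjamini-Hochberg adjusted p under 0.05, 285 (2.35%) of them higher and 534 (4.41%) lower with siRNA. Most of these changes were small, with a median of 1.27-fold, and at least 1.6-fold was reached by 10 higher (0.0825%) and 29 lower genes (0.239%). The 8 siRNA arrays lay above both controls of their own time for 421 genes (3.47%) and below them for 646 (5.33%). Of the genes that passed, 223 higher (1.84%) and 431 lower (3.56%) were apart in this way. The 2 routes at a time share the same control arrays, so a shift of those controls moves both routes at once. When the 24 h control array 2 was left out, 308 genes passed, when 24 h control array 1 was left out 328, and when 12 h control array 1 was left out 361. With the 6 groups as a random block, which counts each pair of arrays as related, 137 genes passed, all of them among the 819, 23 higher (0.19%) and 114 lower (0.941%). At an unadjusted p under 0.05, at which the gene lists below are also counted, 11.2% of all genes were higher and 13% lower, and with the 6 group means fitted 10.5% were higher and 12.4% lower.

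GAPDH itself was lower on every siRNA array than on any control array. Control arrays gave GAPDH log2 levels of 15.03 and 15.05 at 12 h and 15.09 and 15.11 at 24 h. Under PTD-DRBD the levels of GAPDH were 11.75 and 11.62 at 12 h and 12.27 and 12.25 at 24 h, and under lipofection they were 13.81 and 13.74 and 14.07 and 14.21. The 2 PTD-DRBD groups were the lowest, and the lipofection arrays lay between them and the controls at both times, with no overlap of any groups. The pooled change was -2.11 ± 0.456, adjusted p = 0.0145 (limma), a 4.30-fold lower level. Exchanging arrays within each time in all possible arrangements gave an exact two-sided permutation p of 0.008889, where 0.004444 is the smallest that the design allows. The 4 group effects were -3.36 at 12 h and -2.84 at 24 h for PTD-DRBD, and -1.26 and -0.96 for lipofection. The effect was weaker with lipofection than with PTD-DRBD by 1.98 on the log2 scale (adjusted p = 3.65e-09), and weaker at 24 h than at 12 h by 0.41 (adjusted p = 0.0463). Raw intensity of this probe was 33907 to 37159 on controls and 3360.2 to 20218 on siRNA arrays. Both other GAPDH probes gave larger pooled falls, of -2.69 (adjusted p = 0.00667) and -2.82 (adjusted p = 0.00545) among all kept probes. In limma's test the adjusted p rose to 0.0527 without 12 h control array 1 and to 0.0574 with an intensity trend and robust moderation.

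**Figure D1:**
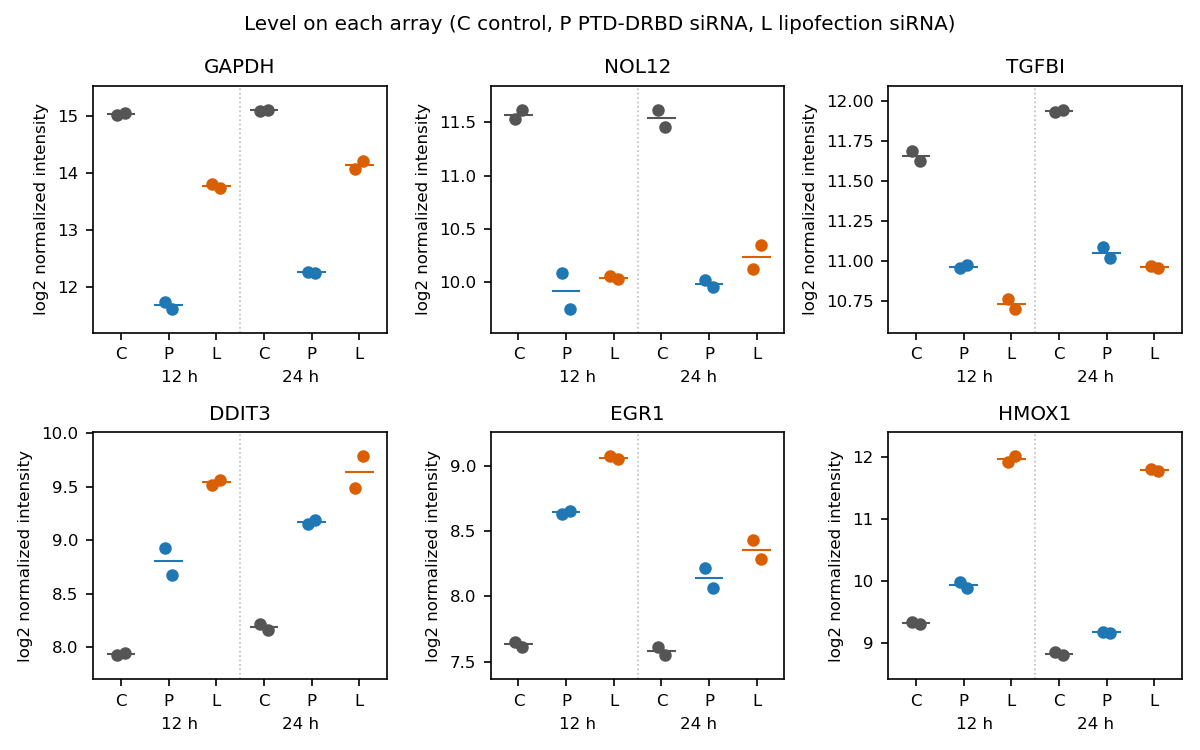
Log2 normalized intensity of 6 genes on each of the 12 arrays (vertical axis), by group (horizontal axis: C control, P PTD-DRBD siRNA, L lipofection siRNA, at 12 h left of the dotted line and 24 h right of it). Points are arrays and short lines the mean of 2 arrays. GAPDH, NOL12 and TGFBI are lower and DDIT3 and EGR1 higher with both routes at both times, while HMOX1 stands high on the 4 lipofection arrays.

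Among 27 measured genes of glycolysis, lactate metabolism and the pentose phosphate pathway other than GAPDH, none rose and 2 fell in limma's test, against 2.35% and 4.41% of all genes. Their median change was -0.05 against 0.001 over all genes tested. At an unadjusted p under 0.05 there were 2 higher and 5 lower, against 11.2% and 13% of all genes. When the 6 group means were fitted 3 were higher and 5 lower, against 10.5% and 12.4%. RPIA, ribose-5-phosphate isomerase of the pentose phosphate pathway, had the larger fall. At 12 h the log2 levels of RPIA were 11.29 and 11.24 for control, 10.74 and 10.76 for PTD-DRBD and 10.56 and 10.52 for lipofection. Those of RPIA at 24 h were 11.11 and 11.12, 10.13 and 10.15 and 10.32 and 10.27 in the same order. All 8 siRNA arrays lay below all 4 controls. The change of RPIA was -0.76 ± 0.0748, adjusted p = 1.08e-04. SLC2A1, a facilitative glucose transporter, fell by 0.29 (adjusted p = 0.0269). The related transporter SLC2A3 did not pass, at 0.47 ± 0.183 (adjusted p = 0.135), with effects of 0.39 at 12 h and -0.16 at 24 h for PTD-DRBD, and 1.04 and 0.60 for lipofection. Of 14 measured genes in common use as references for expression, 1 was lower and none higher, against 4.41% and 2.35% of all genes. This was ACTG1, at -0.27 ± 0.0742, adjusted p = 0.0446. Its call was lost in 8 of the 12 fits that left out a single array. With the 6 groups as a random block RPIA passed, while SLC2A1 (adjusted p = 0.148) and ACTG1 (adjusted p = 0.273) did not.

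NOL12, whose product takes part in ribosomal RNA maturation, fell in all 4 groups. Control arrays gave NOL12 log2 levels of 11.53 and 11.62 at 12 h and 11.61 and 11.46 at 24 h. Under PTD-DRBD the levels of NOL12 were 10.09 and 9.75 at 12 h and 10.02 and 9.96 at 24 h, and under lipofection they were 10.06 and 10.03 and 10.12 and 10.35. The highest siRNA array stayed more than a log2 unit below the lowest control. The change was -1.51 ± 0.0864, adjusted p = 3.97e-07 (limma), with group effects of -1.65 at 12 h and -1.55 at 24 h for PTD-DRBD, and -1.53 and -1.30 for lipofection, and the routes differed by 0.18, adjusted p = 0.142. TGFBI, an extracellular matrix protein gene induced by TGF-beta, had the next smallest p of the named genes. At 12 h the log2 levels of TGFBI were 11.69 and 11.63 for control, 10.95 and 10.97 for PTD-DRBD and 10.76 and 10.70 for lipofection. Those of TGFBI at 24 h were 11.94 and 11.95, 11.09 and 11.02 and 10.97 and 10.96 in the same order. Its siRNA arrays also lay below every control array. It fell by 0.87 ± 0.0665 (adjusted p = 1.02e-05), slightly further with lipofection than with PTD-DRBD (-0.16, adjusted p = 0.0438).

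Further genes fell with both routes. GPR137B levels were 8.89, 9.06, 9.06 and 9.11 on the control arrays, against a lowest of 7.44, a median of 7.94 and a highest of 8.53 on the siRNA arrays, so that the arms did not overlap. GPR137B encodes a lysosomal membrane protein and fell by 1.04 ± 0.162 (adjusted p = 0.00218), less with lipofection (0.60, adjusted p = 1.70e-04). TMTC2 levels were 6.36, 6.80, 6.82 and 6.93 on the control arrays, against a lowest of 5.50, a median of 5.74 and a highest of 6.03 on the siRNA arrays. TMTC2, an endoplasmic reticulum membrane protein gene, changed by -0.96 ± 0.116, adjusted p = 3.75e-04, and GPR176, an orphan G protein-coupled receptor gene, by -0.92 ± 0.122, adjusted p = 6.75e-04. CLDN1, which builds tight junctions, changed by -0.91 ± 0.108, adjusted p = 3.48e-04. LRATD2 fell by 0.88, TOM1L1, an adaptor of endosomal sorting, by 0.81, PAQR8, a membrane progesterone receptor gene, by 0.79 and TMEM181 by 0.76. Their adjusted p-values were 4.58e-04, 1.28e-04, 8.07e-05 and 8.11e-05. PMEPA1, a TGF-beta induced inhibitor of SMAD signalling, fell by 0.76 (adjusted p = 2.15e-04), and its second probe gave -0.725 (adjusted p = 0.0109).

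In the list of extracellular matrix and integrin genes 3 of 34 measured members fell, against 4.41% of all genes, and none rose, with a median change of -0.16. At an unadjusted p under 0.05 there were 11 lower, against 13% of all genes, and 1 higher. ITGA2 levels were 7.44, 7.48, 7.59 and 7.65 on the control arrays, against a lowest of 6.47, a median of 6.67 and a highest of 7.24 on the siRNA arrays. ITGA2, a collagen-binding integrin subunit, changed by -0.79 ± 0.128, adjusted p = 0.00274, THBS1, the matrix glycoprotein thrombospondin 1, by -0.73 ± 0.126, adjusted p = 0.00375, and VCAN, the proteoglycan versican, by -0.72 ± 0.137, adjusted p = 0.00698. ITGA2 and VCAN fell further with lipofection (-0.26, adjusted p = 0.0179; -0.33, adjusted p = 0.0261). Of 21 measured targets of the growth regulators YAP and TEAD, 4 fell, against 4.41% of all genes, and none rose, again in limma's test. These were IGFBP3, a binding protein of insulin-like growth factors (-0.76 ± 0.115, adjusted p = 0.00179), NT5E, the ecto-nucleotidase CD73 (-0.44, adjusted p = 0.00564), RBMS3, an RNA-binding protein (-0.40, adjusted p = 0.0223) and TGFB2, a TGF-beta ligand (-0.40, adjusted p = 0.0246). For RBMS3 at 24 h and TGFB2 at 12 h, siRNA and control arrays overlapped, and with the random block both lost their call (adjusted p = 0.186 and adjusted p = 0.163). The counts at an unadjusted p under 0.05 were 6 lower and 1 higher, against 13% and 11.2% of all genes. The smooth muscle marker ACTA2, held in the list of other cell types, fell by 0.46 (adjusted p = 0.00618), with raw medians of 684.8 and 484.9.

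**Figure D2:**
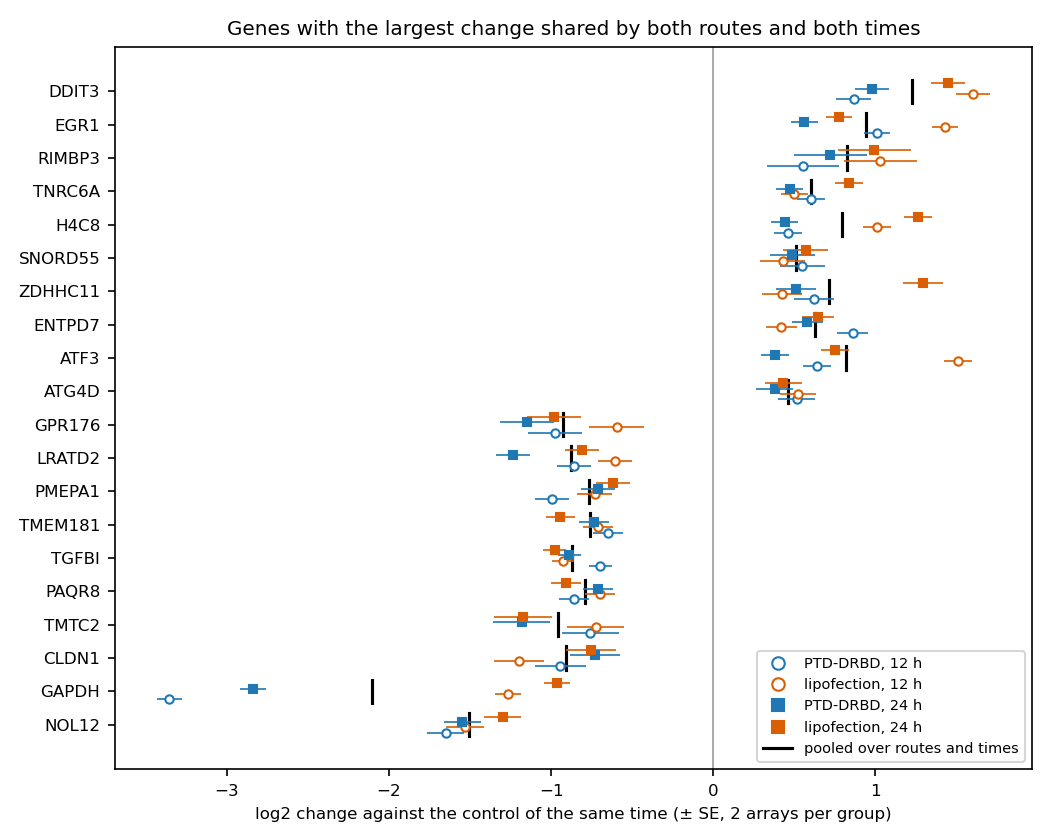
Log2 change against the control of the same time (horizontal axis, ± SE) for the 10 rises and 10 falls with the largest smallest group effect, 1 gene per line. Open circles are 12 h and filled squares 24 h, blue PTD-DRBD and orange lipofection, each 2 arrays against 2 controls, and the black bar is the pooled change. NOL12 lies between -1.65 and -1.30 in all 4 groups, and GAPDH between -3.36 and -0.96.

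DDIT3, which encodes the stress-induced transcription factor CHOP, rose in all 4 groups. Control arrays gave DDIT3 log2 levels of 7.93 and 7.95 at 12 h and 8.22 and 8.16 at 24 h. Under PTD-DRBD the levels of DDIT3 were 8.93 and 8.68 at 12 h and 9.15 and 9.19 at 24 h, and under lipofection they were 9.52 and 9.56 and 9.49 and 9.78. No siRNA array overlapped a control, and at each time the lipofection arrays stood above the PTD-DRBD arrays. The pooled change was 1.22 ± 0.155, adjusted p = 4.70e-04. It was larger with lipofection (0.60, adjusted p = 3.41e-04), and its change with time was -0.02, adjusted p = 0.939. ATF3, a transcription factor gene raised by many stresses, changed by 0.82 ± 0.175, adjusted p = 0.0134, with effects of 0.64 at 12 h and 0.38 at 24 h for PTD-DRBD, and 1.51 and 0.75 for lipofection. Of 35 measured members of the ATF4 list, 9 passed higher (against 2.35% of all genes) and none lower, with a median change of 0.27. Besides DDIT3 and ATF3 these were SESN2, a sestrin that holds back mTORC1 (0.59), PPP1R15A, which directs the phosphatase of eIF2 (0.51), TRIB3, a pseudokinase (0.45 ± 0.123), SLC3A2, the heavy chain of amino acid transporters (0.43 ± 0.103), CARS1, cysteinyl-tRNA synthetase (0.36 ± 0.0868), CTH, cystathionine gamma-lyase (0.34 ± 0.0775) and CEBPB, a C/EBP transcription factor (0.33 ± 0.0734). At an unadjusted p under 0.05 there were 21 higher and 3 lower members, against 11.2% and 13% of all genes. With the 6 groups as a random block DDIT3 and ATF3 passed, and the other 7 did not, from PPP1R15A (adjusted p = 0.052) to TRIB3 (adjusted p = 0.136). The medians of the list were 0.43 at 12 h and 0.06 at 24 h for PTD-DRBD, and 0.27 and 0.00114 for lipofection. Of the members that did not pass, ASNS, asparagine synthetase, stood at 0.49 ± 0.143 (adjusted p = 0.0537) and PSAT1, of serine synthesis, at 0.29 ± 0.125 (adjusted p = 0.175), with effects of 0.75 at 12 h and 0.19 at 24 h for PTD-DRBD, and 0.42 and -0.20 for lipofection. The amino acid transporter gene SLC7A5 stood at -0.21 ± 0.143 (adjusted p = 0.396). SESN2 was detected on 1 of 4 control arrays and all 8 siRNA arrays, its arrays overlapped at 24 h, and its change fell with time (-0.77, adjusted p = 0.0389). SESN2 was kept by the detection filter only through siRNA groups, so its call among the 9 is no support for a rise.

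Promoters of 4 of the genes that rose are shown because ATF4 acts through C/EBP-ATF response elements, whose core TGATGNAA was searched on both strands in the stretch from 250 before to 50 after each annotated start. The sequences are RefSeq's, on GRCh38.p14, each written 5′ to 3′ on the strand of its gene. They are DDIT3 (minus strand, chr12:57520465-57520764), ATF3 (plus strand, chr1:212565157-212565456), SLC3A2 (plus strand, chr11:62881449-62881748) and CARS1 (minus strand, chr11:3057374-3057673), and capitals mark a match to TGATGNAA or to its reverse complement.
DDIT3: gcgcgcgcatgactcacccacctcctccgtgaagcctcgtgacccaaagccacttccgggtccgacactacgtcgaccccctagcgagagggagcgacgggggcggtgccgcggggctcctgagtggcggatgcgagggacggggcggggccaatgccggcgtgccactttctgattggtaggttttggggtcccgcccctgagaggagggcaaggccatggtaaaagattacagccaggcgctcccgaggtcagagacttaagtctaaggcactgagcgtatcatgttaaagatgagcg
ATF3: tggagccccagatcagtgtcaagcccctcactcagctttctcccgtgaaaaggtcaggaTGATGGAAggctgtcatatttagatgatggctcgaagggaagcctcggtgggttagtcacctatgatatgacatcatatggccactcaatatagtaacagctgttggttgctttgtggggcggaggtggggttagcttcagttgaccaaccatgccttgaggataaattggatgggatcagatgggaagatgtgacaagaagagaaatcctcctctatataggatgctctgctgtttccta
SLC3A2: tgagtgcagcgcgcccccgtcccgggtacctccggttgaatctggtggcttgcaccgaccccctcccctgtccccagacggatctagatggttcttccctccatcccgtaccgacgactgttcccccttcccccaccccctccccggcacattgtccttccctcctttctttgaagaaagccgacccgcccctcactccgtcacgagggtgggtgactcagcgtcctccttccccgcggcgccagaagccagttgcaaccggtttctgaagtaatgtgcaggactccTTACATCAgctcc
CARS1: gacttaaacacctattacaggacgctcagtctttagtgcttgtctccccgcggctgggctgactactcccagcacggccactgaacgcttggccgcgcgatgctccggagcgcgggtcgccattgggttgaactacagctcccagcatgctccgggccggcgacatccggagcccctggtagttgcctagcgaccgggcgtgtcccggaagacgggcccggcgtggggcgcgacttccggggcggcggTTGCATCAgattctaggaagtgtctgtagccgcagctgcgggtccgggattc
ATF3 holds its match 191 bases before the start, CARS1 at 2 bases before it and SLC3A2 37 bases after it, and this window of DDIT3 holds none. The core occurs in 177 of 9919 promoters of tested genes (1.78%) and in 1003 of all 27305 promoters of the table (3.67%). Among the ATF4 list it occurs in 9 of 30 promoters of measured members and in 3 of the 9 that passed. The measured members that hold it are ASNS, ATF3, CARS1, CHAC1, IARS1, MARS1, NARS1, SLC3A2 and SLC7A1, so that 6 of the 9 holders did not pass the pooled test. A match describes letters in the window and not binding.

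**Figure D3:**
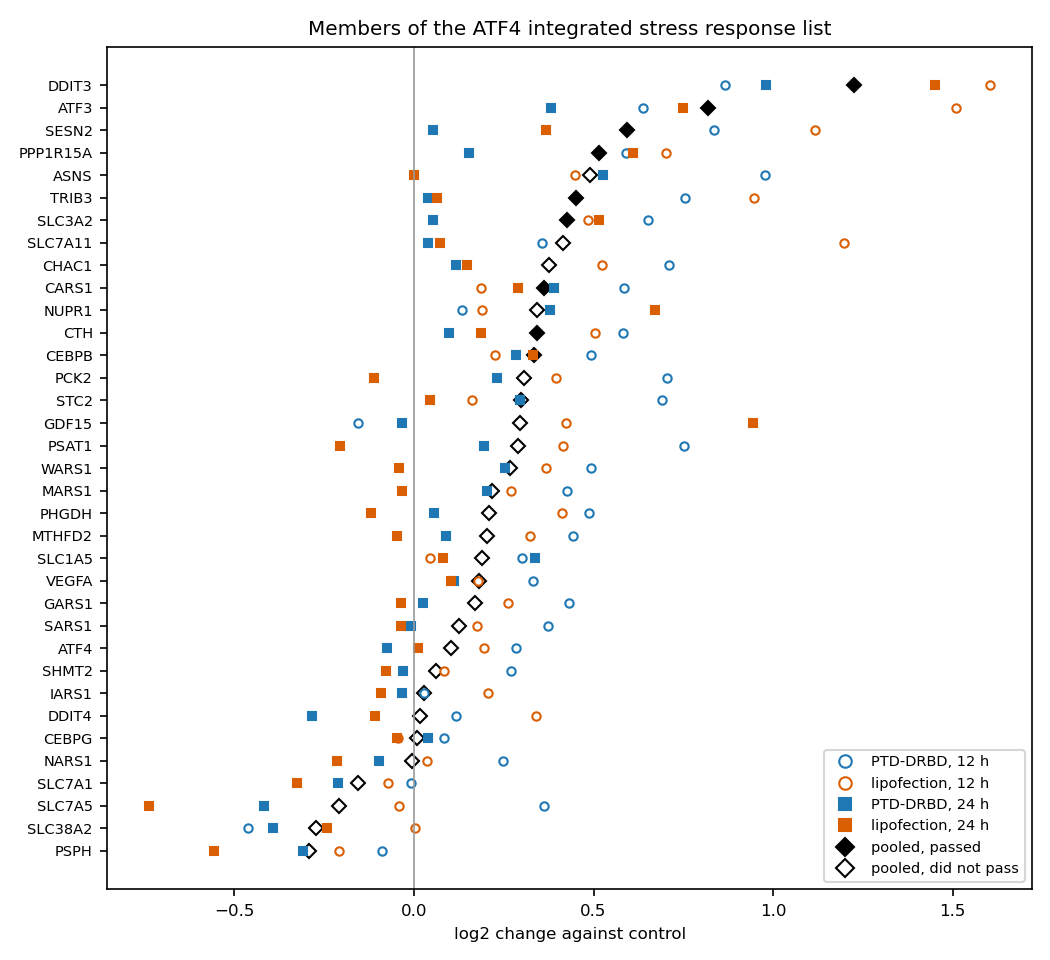
Log2 change against control (horizontal axis) of the 35 measured members of the ATF4 list, 1 gene per line. Diamonds are the pooled change, filled where the gene passed; open circles are 12 h and filled squares 24 h, blue PTD-DRBD and orange lipofection. The 9 filled diamonds lie between 0.33 and 1.22, and the open diamonds reach from -0.29 to 0.49.

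Of 30 measured AP-1 and immediate early genes, which are transcribed within minutes of many stimuli, 5 rose and none fell, against 2.35% and 4.41% of all genes. At 12 h the log2 levels of EGR1 were 7.65 and 7.61 for control, 8.63 and 8.65 for PTD-DRBD and 9.07 and 9.06 for lipofection. Those of EGR1 at 24 h were 7.61 and 7.55, 8.22 and 8.07 and 8.43 and 8.28 in the same order. EGR1, a zinc finger transcription factor gene, was higher on all 8 siRNA arrays. It changed by 0.95 ± 0.118, adjusted p = 4.58e-04 (limma), more with lipofection (0.32, adjusted p = 0.00358) and less at 24 h (-0.55, adjusted p = 0.0249). Control arrays gave FOSB log2 levels of 5.06 and 4.85 at 12 h and 4.71 and 4.63 at 24 h. Under PTD-DRBD the levels of FOSB were 6.11 and 6.22 at 12 h and 4.71 and 4.87 at 24 h, and under lipofection they were 7.38 and 7.27 and 6.14 and 6.13. FOSB, an AP-1 subunit gene, was detected on 1 control and 6 siRNA arrays, and its levels with PTD-DRBD at 24 h lay close to the controls of that time, and neither group was detected. With lipofection at 24 h it was at least 2.16-fold higher than those controls. The fitted pooled change was 1.29 ± 0.318, adjusted p = 0.0264. With the 6 groups as a random block EGR1 and ATF3 passed, and FOSB (adjusted p = 0.0673), MAFG (adjusted p = 0.0673) and DUSP5 (adjusted p = 0.0604) did not. The effect of FOSB differed between routes (1.25, adjusted p = 6.99e-07) and fell with time (-0.9998, adjusted p = 0.00522). FOSB, counted among the 5, was kept by the detection filter only through siRNA groups, where it was high. Its p-values are therefore no support for its rise. MAFG, a small Maf partner of NRF2, rose by 0.50 (adjusted p = 0.0113), while its other probe stood at 0.09. DUSP5, a nuclear ERK phosphatase, rose by 0.42 ± 0.0841 (adjusted p = 0.0101). FOS, whose effects were 0.67 at 12 h and -0.27 at 24 h for PTD-DRBD, and 2.18 and 0.28 for lipofection, did not pass (adjusted p = 0.235), and JUN stood at -0.19 ± 0.125. The median of the list was 0.05, and 9 members were higher and 6 lower at an unadjusted p under 0.05, against 11.2% and 13% of all genes.

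Other genes with the largest pooled or shared rises follow. ENTPD7, an intracellular nucleotide phosphatase gene, rose by 0.63 ± 0.0947, adjusted p = 0.00179, and ATG4D, a protease that processes ATG8 proteins in autophagy, by 0.46 ± 0.0716, adjusted p = 0.00202. ENTPD7 levels were 6.55, 6.77, 7.06 and 7.09 on the control arrays, against a lowest of 7.15, a median of 7.42 and a highest of 8.01 on the siRNA arrays. Within each time the siRNA and control arrays of ENTPD7 did not overlap. TNRC6A, a GW182 protein that binds argonaute in silencing complexes, rose by 0.60 ± 0.0844, adjusted p = 0.00102, but its other 2 probes stood at 0.146 (adjusted p = 0.446) and 0.113 (adjusted p = 0.371). The probes of ZDHHC11, a palmitoyltransferase gene, disagreed likewise, as the probe used changed by 0.71 and the others by 0.0598 and 0.128. RIMBP3 rose by 0.83 ± 0.153, adjusted p = 0.00602, and like ZDHHC11 it has near-identical copies in the genome, so the source of its signal is uncertain. UAP1L1, related to a hexosamine pathway enzyme, rose by 0.72 and the box C/D small nucleolar RNA SNORD55 by 0.51. SNORD55 stood at 0.137 (adjusted p = 0.547) with the trend of gene length removed, an alternative chosen after seeing the data, and at an adjusted p of 0.0713 with the random block. RIMBP3 (adjusted p = 0.0835), UAP1L1 (adjusted p = 0.0921) and ZDHHC11 (adjusted p = 0.0673) did not pass with the random block either. ENTPD7 (adjusted p = 0.0143), ATG4D (adjusted p = 0.0476) and TNRC6A (adjusted p = 0.0092) passed with it.

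Genes with some of the largest pooled means did not pass, and in the pooled fit the spread between routes is part of the error. HMOX1, the heme-degrading enzyme heme oxygenase 1, is an NRF2 target. At 12 h the log2 levels of HMOX1 were 9.34 and 9.31 for control, 9.98 and 9.89 for PTD-DRBD and 11.92 and 12.01 for lipofection. Those of HMOX1 at 24 h were 8.85 and 8.80, 9.18 and 9.16 and 11.81 and 11.77 in the same order. The 4 lipofection arrays stood above every PTD-DRBD array at both times. The pooled change of HMOX1 was 1.64 ± 0.533, adjusted p = 0.0777, and the routes differed by 2.32, adjusted p = 4.30e-10. Of 19 measured NRF2 genes 2 rose and none fell in the pooled test, against 2.35% and 4.41% of all genes. At an unadjusted p under 0.05 there were 8 higher and 1 lower, against 11.2% and 13%. With the 6 group means fitted 15 were higher and 0 lower, against 10.5% and 12.4%. The 2 were GCLM, the modifier subunit of glutamate-cysteine ligase (0.61 ± 0.137, adjusted p = 0.0172), and CBR1, a carbonyl reductase (0.29 ± 0.0784, adjusted p = 0.0384), whose arrays overlapped at 12 h. With the random block neither passed (adjusted p = 0.0554 and adjusted p = 0.215), and the call of CBR1 was lost in 9 of the 12 fits without a single array. The list's median was 0.29, and 13 members were higher with lipofection than with PTD-DRBD and none lower, where 8.76% of all genes were higher. NQO1, a quinone reductase, stood at 0.41 ± 0.229 (adjusted p = 0.293), with effects of -0.08 at 12 h and -0.09 at 24 h for PTD-DRBD, and 0.91 and 0.89 for lipofection.

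The largest pooled change upward, passed or not, belonged to SNORD15B, a small nucleolar RNA, at 2.03 ± 0.715, adjusted p = 0.0999. Its effects were 0.34 at 12 h and 0.71 at 24 h for PTD-DRBD, and 2.67 and 4.40 for lipofection. RN7SK, the noncoding RNA that holds the elongation factor P-TEFb inactive, stood at 1.81 ± 0.534, adjusted p = 0.0556, and RPPH1, the RNA of ribonuclease P, at 1.44 ± 0.507, adjusted p = 0.0999. These 3 differed between routes by 3.01, adjusted p = 4.22e-09, by 2.31, adjusted p = 6.94e-07 and by 2.19, adjusted p = 7.95e-07. In the list of small noncoding RNA genes, which does not hold SNORD55, 1 of 20 measured members rose and none fell, against 2.35% and 4.41% of all genes. The member that passed was SNORD25 (0.34 ± 0.074, adjusted p = 0.0159), and the list median was 0.60. At an unadjusted p under 0.05 there were 14 higher and 0 lower, against 11.2% and 13% of all genes. With the 6 group means fitted 18 were higher and 0 lower, against 10.5% and 12.4%. The list names 81 genes, and a gene was measured once detected on both arrays of any group, siRNA groups included. Members could so enter through a group where they were high, and these counts and the median are no test of a rise. With the trend of gene length removed SNORD25 stood at -0.0448, and with the random block it did not pass (adjusted p = 0.171). Many of these genes are hosted in introns of other genes, and a probe cannot tell the mature small RNA from its host's precursor.

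Replication-dependent histone genes encode messages that usually lack a poly(A) tail. Of 45 measured, 4 rose, against 2.35% of all genes, and none fell, with a list median of 0.27, and 22 were higher and 0 lower at an unadjusted p under 0.05, against 11.2% and 13% of all genes. The passing members were H4C8 (0.79 ± 0.169, adjusted p = 0.013), H4C5 (0.67 ± 0.186, adjusted p = 0.0446), H4C12 (0.54 ± 0.145, adjusted p = 0.0381) and H2BC7 (0.49 ± 0.103, adjusted p = 0.0123). H4C8 levels were 6.89, 6.92, 6.95 and 7.06 on the control arrays, against a lowest of 7.36, a median of 7.74 and a highest of 8.27 on the siRNA arrays. Within each time the H4C8 arrays were apart, but its second probe stood at 0.134. H4C8, H4C5 and H4C12 rose more with lipofection, by 0.69, 0.75 and 0.45, and the difference for H2BC7 was -0.06, adjusted p = 0.759. With the random block H4C8 passed, and H4C5 (adjusted p = 0.131), H4C12 (adjusted p = 0.192) and H2BC7 (adjusted p = 0.132) did not. Leaving out a single array lost the call of H4C5 in 9 and that of H4C12 in 7 of 12 fits. Histone genes of a class are near-identical in sequence, so signal of single members is uncertain. The list names 58 genes, and members could enter by detection in an siRNA group alone, so its counts and median are no test of a rise. H4C2 was detected on 0 control and 5 siRNA arrays. Of 44 measured genes of DNA replication and S phase, in which histone messages are made, none rose and 1 fell, against 2.35% and 4.41% of all genes. This was TYMS, thymidylate synthase (-0.26 ± 0.067, adjusted p = 0.0313, and adjusted p = 0.175 with the random block). At an unadjusted p under 0.05 there were 1 higher and 9 lower, against 11.2% and 13% of all genes. No gene of 37 for G2 and mitosis passed in limma's test, with 1 higher and 2 lower at an unadjusted p under 0.05 and likewise when the 6 group means were fitted.

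In the list of lysosome and autophagy genes, which holds neither ATG4D nor GPR137B, 3 of 37 measured members rose and 1 fell, against 2.35% and 4.41% of all genes, with a median of 0.09. NEU1 levels were 8.57, 8.59, 8.75 and 8.81 on the control arrays, against a lowest of 9.01, a median of 9.34 and a highest of 9.77 on the siRNA arrays, with no overlap. NEU1, the lysosomal sialidase, rose by 0.69 ± 0.162, adjusted p = 0.0221, and more with lipofection (0.66, adjusted p = 9.58e-05). GLA, alpha-galactosidase A, rose by 0.32 and ATP6V1D by 0.22, while ATP6V1A, another subunit of the proton pump's cytosolic sector, fell by 0.37 (adjusted p = 0.0235, 0.0477 and 0.0163). Between the routes, 24 of the 37 were higher with lipofection and none lower, against 8.76% and 9.63% of all genes. With the random block none of the 4 pooled calls held, from NEU1 (adjusted p = 0.0693) to ATP6V1D (adjusted p = 0.247), and that of ATP6V1D was lost in 11 of 12 fits without a single array. In the zinc response list 2 of 6 measured members rose, MTF1, the metal-sensing transcription factor (0.52 ± 0.108, adjusted p = 0.0117), and SLC30A1, a zinc exporter (0.35 ± 0.0773, adjusted p = 0.0152), against 2.35% of all genes. With the random block neither passed (adjusted p = 0.0691 and adjusted p = 0.0993).

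Sensors of double-stranded RNA and interferon-stimulated genes had 2 falls, against 4.41% of all genes, and no rise among 31 measured members in limma's test. At an unadjusted p under 0.05 there were 7 lower and 0 higher, against 13% and 11.2% of all genes. When the 6 group means were fitted 2 were higher and 6 lower. IFIH1, the sensor MDA5, fell by 0.43 ± 0.0732 (adjusted p = 0.00374), with effects of -0.57 at 12 h and -0.23 at 24 h for PTD-DRBD, and -0.65 and -0.25 for lipofection. TAP1, a peptide transporter of antigen presentation, fell by 0.30 (adjusted p = 0.0396). The call of TAP1 was lost in 8 of 12 fits without a single array and with the random block (adjusted p = 0.168), where IFIH1 passed. IFIH1 levels were 9.73, 9.79, 10.21 and 10.28 on the control arrays, against a lowest of 9.49, a median of 9.53 and a highest of 9.69 on the siRNA arrays. ISG15, a ubiquitin-like protein induced by interferon, stood at 0.11 ± 0.106 and IFIT2 at 0.30 ± 0.238 (adjusted p = 0.549 and 0.467). Among 20 NF-kappaB genes, 1 fell and none rose, against 4.41% and 2.35% of all genes. This was NFKB1, a subunit of that factor, which fell by 0.35 (adjusted p = 0.00775). With the random block NFKB1 did not pass (adjusted p = 0.0938). Of 19 measured genes of the RNA interference machinery 1 rose, TNRC6A, and 1 fell, PRKRA, against 2.35% and 4.41% of all genes. PRKRA, a dsRNA-binding partner of Dicer, fell by 0.27 (adjusted p = 0.0167, and adjusted p = 0.135 with the random block). DICER1 stood at -0.24 ± 0.0872 (adjusted p = 0.11).

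In the endoplasmic reticulum list HSPA5, the chaperone BiP, fell by 0.29 (adjusted p = 0.00474) and the chaperone HYOU1 rose by 0.25 (adjusted p = 0.0438). They were the only members of 26 to pass, where 4.41% of all genes were lower and 2.35% higher. With the random block neither passed (adjusted p = 0.0673 and adjusted p = 0.206), and the call of HYOU1 was lost in 9 of 12 fits without a single array. Of 22 measured p53 targets SESN2 and PLK2, a polo-like kinase (0.46 ± 0.115, adjusted p = 0.0284), rose and none fell, against 2.35% and 4.41% of all genes. Among 60 respiratory chain subunits ATP5F1A, the alpha subunit of ATP synthase, fell by 0.28 (adjusted p = 0.0305), its arrays overlapping at 12 h. No other subunit passed, where 4.41% of all genes were lower and 2.35% higher. With the random block SESN2 (adjusted p = 0.125), PLK2 (adjusted p = 0.171) and ATP5F1A (adjusted p = 0.182) did not pass. None of 61 ribosomal protein genes, 26 proteasome genes, 21 heat shock chaperones or 20 cholesterol genes passed in limma's test. At an unadjusted p under 0.05 the higher and lower counts were 8 and 1 for ribosomal proteins, 6 and 0 for the proteasome, 4 and 0 for heat shock chaperones and 2 and 0 for cholesterol genes, against 11.2% and 13% of all genes. With the 6 group means fitted they were 3 and 1, 6 and 0, 3 and 1, and 7 and 0.

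**Figure D4:**
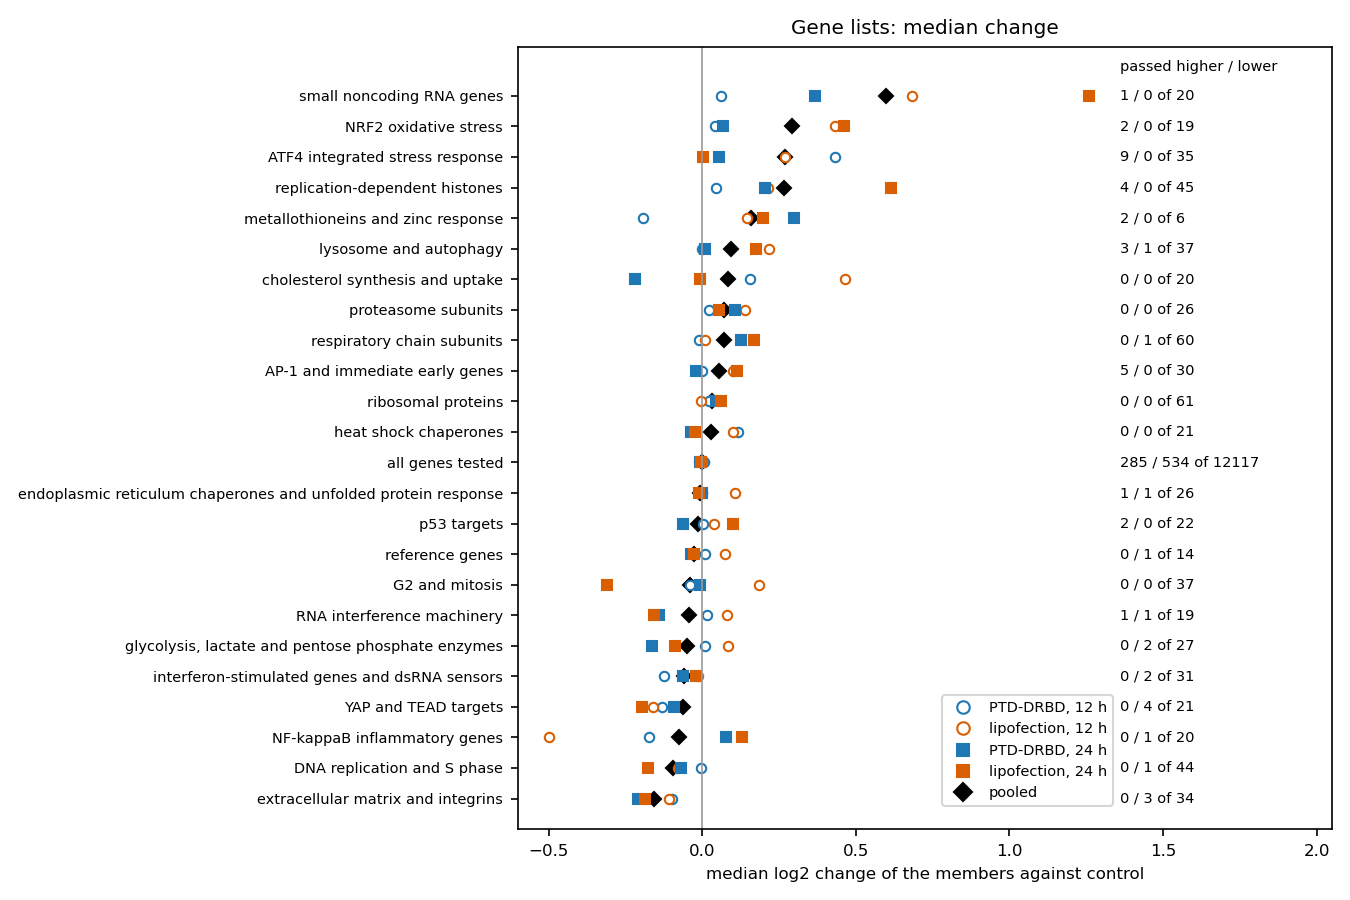
Median log2 change of each list's measured members against control (horizontal axis), with diamonds for the pooled comparison, open circles for 12 h and filled squares for 24 h, blue for PTD-DRBD and orange for lipofection. The numbers at the right count members that passed higher and lower of those measured. Small noncoding RNA genes (0.60), NRF2 genes (0.29) and ATF4 genes (0.27) have the highest pooled medians, and extracellular matrix and integrins the lowest (-0.16).

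The pooled effect was next taken at each time by itself, from a fit of the 6 group means. At 12 h 1058 genes passed (8.73%), 425 higher (3.51%) and 633 lower (5.22%), and at 24 h 2828 (23.3%), 1287 higher (10.6%) and 1541 lower (12.7%). The change between the times was tested directly and passed for 429 genes (3.54%), 207 more positive at 24 h (1.71%) and 222 more negative (1.83%). ANKRD1, an ankyrin repeat transcription cofactor, had effects of -0.22 at 12 h and 0.74 at 24 h for PTD-DRBD, and -1.03 and 0.98 for lipofection, a change with time of 1.49, adjusted p = 0.00138. For CCL2, a monocyte chemokine, the change was 1.28, adjusted p = 0.0116, for ANKRD22 1.14, adjusted p = 0.0113 and for NFKB2, an NF-kappaB subunit, 1.11, adjusted p = 0.00173. CCL2 had effects of -0.67 at 12 h and -0.04 at 24 h for PTD-DRBD, and -1.80 and 0.13 for lipofection. Its control mean was 7.37 at 12 h and 5.71 at 24 h. For ANKRD22 the effects were -0.53 and 0.37, and -0.26 and 1.11, in the same order. The control mean of NFKB2 was 10.79 at 12 h and 9.60 at 24 h, while its siRNA group means lay between 10.21 and 10.36. In the other direction HMGCS1, an early enzyme of cholesterol synthesis, had effects of 0.77 at 12 h and -0.34 at 24 h for PTD-DRBD, and 1.21 and -0.00389 for lipofection and a change of -1.17, adjusted p = 0.00138. STARD4, a sterol carrier, moved by -1.15, adjusted p = 0.0113, MEF2C, a transcription factor gene, by -1.09, adjusted p = 0.0138 and FER, a tyrosine kinase, by -1.13, adjusted p = 0.0337. None of these 8 passed in the comparison pooled over times, which averages the effects at 12 h and 24 h. FER's other probe had a pooled change of 0.0775. The count of 429 depended on single arrays, with 28 genes without 12 h control array 2, 34 without 24 h control array 1 and 682 without 24 h lipofection array 1.

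The routes were compared over both times within the same fit. Lipofection differed from PTD-DRBD for 2228 genes (18.4%), 1061 higher (8.76%) and 1167 lower (9.63%). Of the 819 genes of the pooled comparison 137 also differed between routes (16.7%, close to the share of all genes), 79 of them with the higher level under lipofection, and 39 differed between the times (4.76%). AMHR2, the receptor of anti-Müllerian hormone, had the most negative route difference. It was detected on all 4 PTD-DRBD arrays and on no lipofection array, and was at least 3.03-fold higher with PTD-DRBD. AMHR2 was kept by the detection filter only through the PTD-DRBD groups, where it was high, so its test is no support for the difference. SPINT2, a serine protease inhibitor, was detected on all 4 PTD-DRBD arrays and on 2 of 4 lipofection arrays, so that its fitted difference of -1.23, adjusted p = 8.30e-07 includes levels near background. For TAFA3 the difference was -0.94, adjusted p = 9.38e-06 and for MGLL, monoglyceride lipase, -0.94, adjusted p = 3.26e-06. None of the 4 passed in the pooled comparison.

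**Figure D5:**
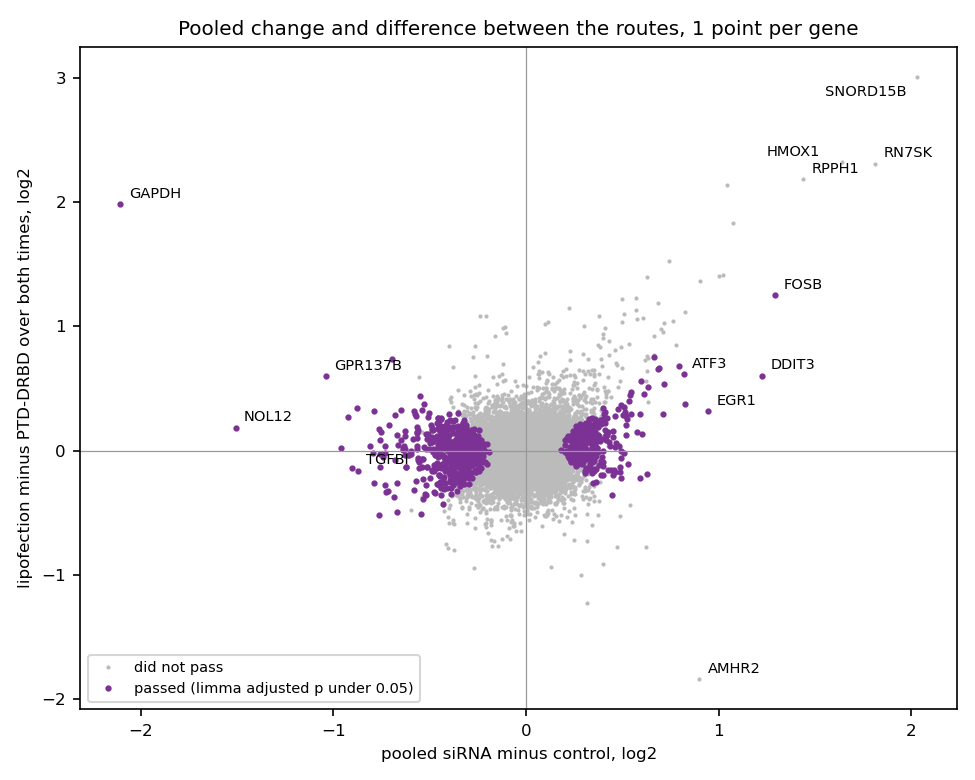
Each point is a gene, with its pooled siRNA minus control log2 change (horizontal axis) and its lipofection minus PTD-DRBD log2 difference over both times (vertical axis). Purple points passed the pooled test and grey points did not. NOL12 and TGFBI lie near the horizontal line at 0, GAPDH at the upper left, and HMOX1, RN7SK, RPPH1 and SNORD15B at the upper right did not pass.

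Length and promoter composition of the genes that passed are given as a description, without a test. Median genomic length was 50.2 kb for the 534 lower genes, 17.2 kb for the 285 higher genes and 28.5 kb for all tested, in RefSeq gene models. Median promoter GC content was 69.3% for the lower, 63.7% for the higher and 65.0% for all tested genes with a promoter in the table. When a smooth trend of change against gene length was removed, 745 genes passed, 290 higher and 455 lower. The part of gene length in single results was not otherwise tested. The core TGATGNAA occurs in 2.56% of promoters of higher genes (6 of 234) and 1.55% of those of lower genes, against 1.78% of all tested. For the AP-1 element TGANTCA the shares are 5.98% and 2.66%, against 4.75% of all tested. For the cyclic AMP response element TGACGTCA they are 5.98% and 2.88%, against 3.17%. For the antioxidant response element core TGACNNNGC they are 18.4% and 11.1%, against 15.4%.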

How the data were processed

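H1299 cells were exposed for 6 h and recovered 12 h or 24 h later, and labelled cRNA of 12 samples was hybridised to Illumina BeadChips, per the labels' protocols. The deposited non-normalized table gives raw intensity for 48701 probes and, beside each, a detection p-value that the authors exported with BeadStudio, per the submitters' processing notes, without a version. The authors' deposited normalized intensity values, whose method no source used here gives, served as an alternative. 

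The neqc function of limma 3.58.1 (R 4.3.3) corrected background through the detection p-values with an offset of 16, then quantile normalized and log2 transformed the intensities. A probe was kept when it was detected (p under 0.05) on the 2 arrays of any of the 6 groups, which left 19631 probes or 40.3%. Of all probes, 23687 had 1 gene symbol, 35 several and 24979 none in the platform annotation, and symbols were updated through RefSeq for 23651. The 5588 kept probes without a single gene were left out and the brightest probe of a gene was used, leaving 12117 genes. Arm and time were fitted over 12 arrays (9 residual and 5.66 prior degrees of freedom), so that the spread between routes is part of the error. Times, routes and the 4 single groups were contrasts of a fit of the 6 group means. The Benjamini-Hochberg adjustment ran over all genes, with 0.05 as the threshold. The number of arrays per group (2) limits the precision of group effects. The fits were tested on simulated data with independent noise and the same added change on all siRNA arrays of a changed gene. The simulation held no route difference, time difference or correlation within groups, so it cannot show how the fits behave under these. 

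Named genes were GAPDH, the 10 largest rises and falls of the pooled comparison that passed with no overlap at either time, the 10 of each by the smallest group effect, the 4 largest members of each of 25 lists that passed, and the 4 largest of each sign for time and route. Open reading frame and hypothetical names were passed over, and other genes named were picked from the lists after their values were seen. The members and lists were chosen with earlier results of these data known. Alternatives were the normalization, the filter, the probes, the design, a fold minimum of 1.6, leaving out arrays and, added after seeing the data, a loess correction for gene length. Promoters came from the RefSeq table for GRCh38.p14, which matched 9919 of the genes tested.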

Additional observations from a re-analysis of the deposited data

Results flagged for a closer look

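Several named genes had effects that differed between the routes, tested as the limma contrast of lipofection minus PTD-DRBD over both times with the adjusted p under 0.05. Each value in parentheses is that difference in log2 units. The lipofection effect was the higher by over 1 log2 unit for GAPDH (1.98), FOSB (1.25), SNORD15B (3.01), HMOX1 (2.32), RN7SK (2.31) and RPPH1 (2.19). It was higher by 0.5 to 1 unit for DDIT3 (0.60), ATF3 (0.62), H4C8 (0.69), UAP1L1 (0.53), NEU1 (0.66), H4C5 (0.75), GPR137B (0.60), ANKRD22 (0.51) and MEF2C (0.54). It was higher by less than 0.5 units for EGR1 (0.32), ZDHHC11 (0.29), LRATD2 (0.34), GCLM (0.45), PPP1R15A (0.29), ATP6V1A (0.19), GLA (0.19), H4C12 (0.45), MAFG (0.28), ACTA2 (0.26), HMGCS1 (0.39) and STARD4 (0.44). For genes that fell, such as GAPDH, GPR137B, LRATD2, ATP6V1A and ACTA2, a positive difference is a smaller fall with lipofection. The lipofection effect was the lower for TGFBI (-0.16), TAP1 (-0.22), ITGA2 (-0.26), VCAN (-0.33), ANKRD1 (-0.28), CCL2 (-0.48), AMHR2 (-1.84), SPINT2 (-1.23), TAFA3 (-0.94) and MGLL (-0.94).

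The pooled effect also differed between 24 h and 12 h for some named genes, tested as a contrast in the same fit. The 24 h effect was the higher for GAPDH (0.41), ANKRD1 (1.49), CCL2 (1.28), ANKRD22 (1.14), NFKB2 (1.11) and SNORD15B (1.05), and the lower for FOSB (-0.9998), EGR1 (-0.55), ATF3 (-0.51), SESN2 (-0.77), VCAN (-0.64), HMGCS1 (-1.17), STARD4 (-1.15), FER (-1.13), MEF2C (-1.09) and SPINT2 (-0.61). FER's value rests on 1 of its 2 probes. The values of FOSB, SESN2, AMHR2 and SPINT2 include groups that were not detected or detected on some arrays, so their sizes are uncertain. FOSB, SESN2 and AMHR2 were kept by the detection filter only through siRNA groups, so their tests are no support.

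On the control arrays 4 genes had an array apart from the other 3 by the gap test used for small groups, which chance meets in about 1 group in 20. The lowest control level of ATF3 was 8.07, that of TOM1L1 8.39 and that of TYMS 13.21, and the highest control level of UAP1L1 was 6.57.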

How the results depend on the processing

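No paired analysis was possible because the labels give no replicate numbers that the groups share. For the pooled comparison, where 819 genes passed, 2778 passed with the 6 group means fitted, 137 with the group as a random block (consensus correlation 0.47), 293 without the time block, 39 with a minimum of 1.6-fold and 480 with array 2 of each siRNA group at 24 h left out. The other settings gave 745 to 999, and 308 to 928 passed when a single array was left out. For the change with time, 429 genes became 1012 with the authors' normalized values, 234 without a detection filter, 960 with quantile normalization alone and 28 to 682 with an array left out. With an array left out, the counts ran from 1382 to 2057 for the routes, from 286 to 1066 for 12 h and from 974 to 3224 for 24 h. The GAPDH exact test passed in every alternative run, with changes of -2.29 to -1.92 and p of at most 0.04 with an array left out. Of the 59 named genes that passed, 29 passed at every one-array omission and 27 with the group as a random block, and 21 under every alternative run other than the fold minimum, NOL12, TGFBI, DDIT3, EGR1 and RPIA among them. Each single-gene direction held in all alternatives but for SNORD25 (-0.0448 with the gene length trend removed, added after seeing the data). The cause of these shifts was not tested beyond the fewer arrays or the stricter rule that each setting itself brings. Chip and slide of the arrays are not given in the sources used here. Genes near background, such as FOSB, SESN2 and AMHR2, have compressed fold changes. With 2 arrays per group, controls shared by the routes and no carrier control, p-values cover the spread of these arrays alone.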

Other observations

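Cholesterol synthesis genes were listed above only by their counts. Their list median was 0.16 at 12 h and -0.22 at 24 h for PTD-DRBD, and 0.47 and -0.0076 for lipofection. MSMO1, a sterol oxidase gene, had effects of 0.30 at 12 h and -0.28 at 24 h for PTD-DRBD, and 0.99 and 0.17 for lipofection, and MVD, of the mevalonate pathway, had effects of 0.48 at 12 h and -0.38 at 24 h for PTD-DRBD, and 0.95 and -0.16 for lipofection. In NF-kappaB genes the medians were -0.17 and -0.50 at 12 h and 0.08 and 0.13 at 24 h, PTD-DRBD before lipofection. For genes of G2 and mitosis they were -0.04 and 0.19 at 12 h and -0.006 and -0.31 at 24 h. Of all genes tested, 1827 had all 4 group effects above 0 and 1918 all 4 below 0, in groups that share controls within a time.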
